A study of Mus musculus with 12 samples.

Results

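The 7 genes described here, *P2ry12*, *Tmem119*, *Cx3cr1*, *Csf1r*, *Siglech*, *Sall1* and *Gpr34*, mark microglia in their resting, or homeostatic, state. They were taken by an exact match of their symbols to the gene names of the deposited table, which lists 55487 genes, and all 7 were found. The study sequenced poly(A) RNA of whole mouse retina in 12 libraries, 2 for each of 6 groups, and each library was made from more than 3 pooled retinas of adult mice. WT retinas came from C57BL/6J mice, JNK3 KO retinas from *Jnk3*-/- mice that lack the neuronal stress kinase JNK3 (gene *Mapk10*), and sh*Pax6* retinas from WT mice infected with an AAV2.7m8 vector in which the U6 promoter drives a short hairpin RNA against the transcription factor *Pax6* and which also carries GFP. Eyes of each kind received 1 µL of PBS or of 40 mM NMDA, an agonist of NMDA-type glutamate receptors, into the vitreous, which gives the groups WT PBS, WT NMDA, sh*Pax6* PBS, sh*Pax6* NMDA, JNK3 KO PBS and JNK3 KO NMDA. No library of a control hairpin vector was among the 12, so infection and injection of the vector cannot be told apart from knockdown. The study's text gives both a subretinal and an intravitreal route for the vector.

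Microglia are the resident macrophages of the brain and retina. In undisturbed tissue they depend on CSF1R, the receptor tyrosine kinase for the cytokines CSF1 and IL-34, and on TGF-beta signalling, which maintains a set of genes that other macrophages express weakly. After injury, microglia commonly lower this homeostatic set, raise lysosomal and phagocytic genes, and are joined by monocytes and neutrophils from the blood. Of the 7 genes, *P2ry12* encodes an ADP receptor that steers microglial processes towards damage, *Cx3cr1* the receptor for the neuronal ligand CX3CL1, *Gpr34* a receptor for lysophosphatidylserine, *Siglech* a sialic acid-binding lectin, *Tmem119* a membrane protein that separates microglia from blood-derived macrophages, and *Sall1* a transcription factor that maintains microglial identity.

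Promoter sequence from RefSeq (GRCm38.p6), from 250 bases before to 50 bases after the start of the gene, was found for 4 of the 7 genes (*P2ry12*, *Cx3cr1*, *Siglech* and *Sall1*). The promoters of *P2ry12* and *Cx3cr1*, whose values were both lower in WT retinas after NMDA, are shown beside that of *Siglech*, each 5′ to 3′ on the gene's own strand. The falls of *P2ry12* and *Cx3cr1* depended on the processing and on single libraries, as given below. The log2 fold change of *Siglech* in WT had a 95% interval of -1.06 to 3.21. The promoters shown are therefore no contrast of responses. Capitals mark the letters GAGGAA, a form of the motif that the myeloid factor PU.1 binds, or their reverse complement TTCCTC.
*P2ry12*, chr3:59262936-59263235, minus strand: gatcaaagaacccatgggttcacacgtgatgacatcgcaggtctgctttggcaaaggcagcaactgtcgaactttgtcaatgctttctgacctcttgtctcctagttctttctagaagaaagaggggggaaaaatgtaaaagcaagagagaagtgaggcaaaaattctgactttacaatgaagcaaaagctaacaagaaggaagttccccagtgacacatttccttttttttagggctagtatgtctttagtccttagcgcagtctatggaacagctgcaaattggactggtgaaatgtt
*Cx3cr1*, chr9:120068247-120068546, minus strand: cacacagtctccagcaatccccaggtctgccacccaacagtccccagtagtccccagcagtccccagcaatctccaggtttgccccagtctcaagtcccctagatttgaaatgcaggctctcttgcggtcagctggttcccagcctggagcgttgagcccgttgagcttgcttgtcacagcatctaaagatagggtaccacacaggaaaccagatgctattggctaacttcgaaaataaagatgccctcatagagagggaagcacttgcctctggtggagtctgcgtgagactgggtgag
*Siglech*, chr7:55767934-55768233, plus strand: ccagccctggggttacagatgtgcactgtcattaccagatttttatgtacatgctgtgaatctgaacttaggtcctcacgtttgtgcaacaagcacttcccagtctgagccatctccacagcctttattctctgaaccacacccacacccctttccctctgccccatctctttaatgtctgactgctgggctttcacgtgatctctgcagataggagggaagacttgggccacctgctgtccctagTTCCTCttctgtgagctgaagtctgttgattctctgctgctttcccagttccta
The motif occurs 1 time in the *Siglech* promoter, on the opposite strand, and not in those of *P2ry12* and *Cx3cr1*, searched on both strands, while 28.3% of 32851 RefSeq promoters of this length hold it. The longer form GAGGAAGT, which contains the shorter, is in 3.2% of the promoters and in none of the 4 genes. Other forms of the motif were not searched. The RefSeq starts differ from the gene bounds of the annotation used for the expression values, and a match is a description of the letters, not a site.

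The gene values are FPKM, a fragment number scaled by transcript length and library size. They hold no counts, but the steps between low values of genes with a single transcript put the libraries at 21250000 to 27000000 fragments, with 75.4% to 89.6% of such values within 0.2 of a whole fragment. Differences were tested with limma on log2(FPKM + 0.1) over the 16471 genes with a mean above 1 FPKM in at least 1 group, and a gene is called changed at a Benjamini-Hochberg adjusted p below 0.05 over all of them. The p-values measure the spread between libraries of pooled retinas. The hairpin's target *Pax6* had 173.48 and 177.3 FPKM in WT PBS against 94.56 and 92.84 FPKM in sh*Pax6* PBS retinas (log2 fold change -0.90, adjusted p = 6.04e-05), but 55.42 and 53.81 FPKM in WT NMDA against 67.52 and 58.73 FPKM in sh*Pax6* NMDA retinas. The deleted *Mapk10* had 42.79 and 50.72 FPKM in WT PBS against 9.47 and 8.75 FPKM in JNK3 KO PBS retinas (log2 fold change -2.34, adjusted p = 0.0215 by limma). With NMDA it had 8.98 and 6 FPKM in WT against 6.65 and 13.77 FPKM in JNK3 KO retinas, so its level did not separate these groups. In sh*Pax6* PBS retinas it stood at 20.86 and 21.33 FPKM. The WT NMDA libraries stood apart from the others, with gene FPKM summing to 805627 and 820180 against 541210 to 576922 elsewhere. In WT, the median log2 fold change after NMDA was 0.62 over genes with spliced transcripts under 2 kb and -1.17 over those of 4 kb or longer, whereas it was 0.20 and -0.07 in sh*Pax6* and -0.11 and 0.16 in JNK3 KO retinas.

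In GRCm38, *P2ry12* (ENSMUSG00000036353) lies on the minus strand of chromosome 3 from 59216272 to 59262871, *Tmem119* (ENSMUSG00000054675) on the minus strand of chromosome 5 from 113793729 to 113800516, *Cx3cr1* (ENSMUSG00000052336) on the minus strand of chromosome 9 from 119901616 to 120069879 and *Csf1r* (ENSMUSG00000024621) on the plus strand of chromosome 18 from 61100598 to 61132149. *Siglech* (ENSMUSG00000051504) lies on the plus strand of chromosome 7 from 55768178 to 55778925, *Sall1* (ENSMUSG00000031665) on the minus strand of chromosome 8 from 89027235 to 89044162 and *Gpr34* (ENSMUSG00000040229) on the plus strand of chromosome X from 13632089 to 13640858.

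All 7 genes were detected at low levels. In WT PBS retinas the FPKM fell in the order *Csf1r* (7.17 and 8.6), *Cx3cr1* (3.33 and 3.19), *Tmem119* (1.07 and 1.35), *P2ry12* (1.15 and 0.58), *Sall1* (0.32 and 0.29), *Siglech* (0.11 and 0.29) and *Gpr34* (0.27 and 0.09). The values of *Tmem119* and *P2ry12* overlapped, as did those of *Siglech* and *Gpr34*, while each of *Csf1r* and *Cx3cr1* lay above every lower gene in both libraries. By the depth estimate, a value of *Csf1r* rested on 340 to 1363 fragments and one of *Cx3cr1* on 173 to 552, but one of *P2ry12* on 1 to 87, one of *Gpr34* on 4 to 52 and one of *Siglech* on 0 to 46. *Tmem119*, *Cx3cr1* and *Csf1r* had a mean above 1 FPKM in WT PBS retinas and in sh*Pax6* retinas. *P2ry12*, *Siglech* and *Gpr34* passed this limit only through sh*Pax6* groups, and *Sall1*, at most 0.71 FPKM as a group mean, did not pass it, so 6 of the 7 genes were tested. The bulk values cannot tell fewer microglia from less of a transcript per microglial cell.

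**Figure D1:**
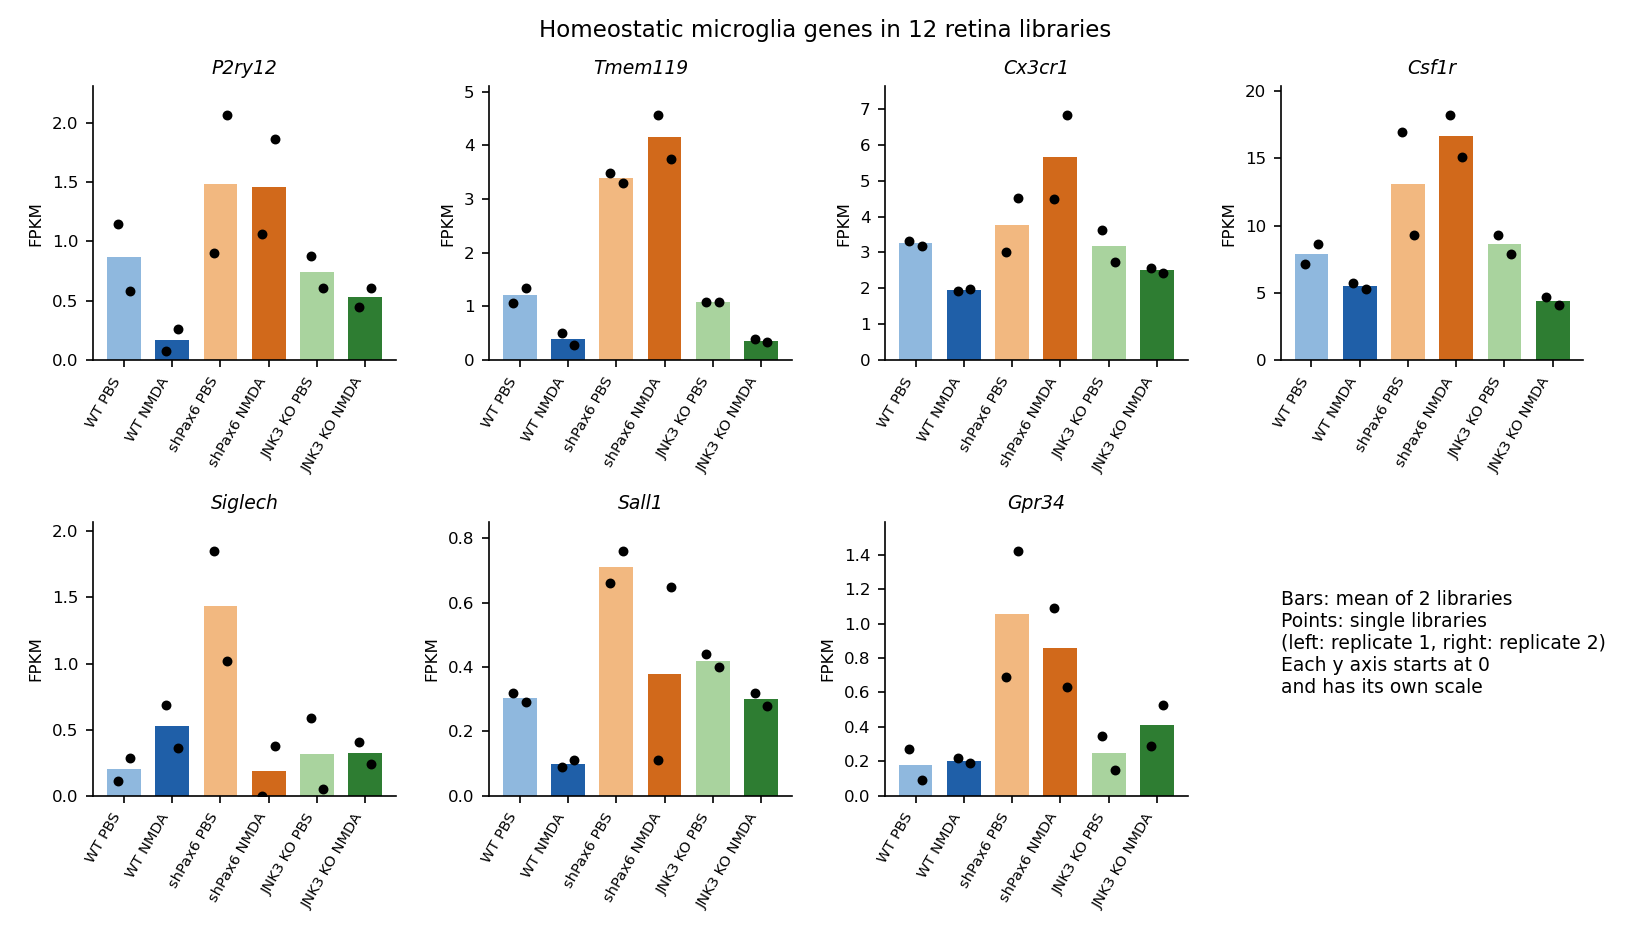
FPKM of the 7 homeostatic microglia genes in the 12 retina libraries, with bars for the mean of the 2 libraries of a group and points for the libraries. By group mean, *Tmem119* and *Csf1r* are highest in the sh*Pax6* groups (*Tmem119* at 3.3 to 4.56 FPKM) and lowest in the NMDA groups of WT and JNK3 KO retinas (*Tmem119* at 0.28 to 0.51 FPKM). The *Csf1r* libraries of sh*Pax6* PBS, at 16.95 and 9.28 FPKM, overlap those of JNK3 KO PBS, at 9.32 and 7.91 FPKM. The value of 16.95 FPKM holds 7.54 FPKM of a transcript of 416 bases.

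After NMDA, WT retinas held less *Tmem119*, *P2ry12* and *Cx3cr1*. *Tmem119* went from 1.07 and 1.35 FPKM after PBS to 0.51 and 0.28 FPKM after NMDA. *P2ry12* went from 1.15 and 0.58 to 0.08 and 0.26 FPKM, and *Cx3cr1* from 3.33 and 3.19 to 1.92 and 1.98 FPKM. For each of the 3 genes both NMDA libraries lay below both PBS libraries. The log2 fold changes were -1.44 for *Tmem119* (standard error 0.32, adjusted p = 0.0037 by limma), -1.86 for *P2ry12* (standard error 0.57, adjusted p = 0.0189) and -0.71 for *Cx3cr1* (standard error 0.27, adjusted p = 0.0451). Thus 3 of the 6 members tested fell and 0 rose, where 33.8% of all genes tested fell and 26% rose in this comparison. *Csf1r* was listed at 7.17 and 8.6 FPKM after PBS against 5.77 and 5.3 FPKM after NMDA, also without overlap, but its log2 fold change of -0.50 (95% interval -1.08 to 0.08) was not called. *Siglech* stood at 0.11 and 0.29 FPKM after PBS against 0.69 and 0.36 FPKM after NMDA, and *Gpr34* at 0.27 and 0.09 against 0.22 and 0.19 FPKM. Their log2 fold changes of 1.07 (95% interval -1.06 to 3.21) and 0.20 (95% interval -1.18 to 1.58) were not called, and that of *Gpr34* turned to -0.17 on TPM. *Sall1* was listed at 0.32 and 0.29 FPKM after PBS against 0.09 and 0.11 FPKM after NMDA, a log2 fold change of -1.02 (adjusted p = 0.235 among the 27761 genes tested without a limit on low values).

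Over all 7 members without that limit, the median log2 fold change in WT was -0.71, against -0.07 over the 27761 genes. The *Tmem119* call held without each library in turn (log2 fold change -1.78 to -1.09) and after each library's trend with transcript length was removed (-1.41). The *P2ry12* call was lost without WT PBS replicate 1 (-1.42, adjusted p = 0.125) and without WT NMDA replicate 1 (-1.36, adjusted p = 0.114), and stood after removal of the length trend (-2.04). The *Cx3cr1* call was lost without any of the 4 libraries (-0.74 to -0.68), and with the length trend removed its log2 fold change was -0.09 and that of *Csf1r* turned to 0.12. The *P2ry12* call was also lost with the spread of the WT groups alone (adjusted p = 0.0577), with transcripts of 1 kb or longer (-1.70, adjusted p = 0.0657) and at a pseudocount of 1 (-0.66, adjusted p = 0.0765), and that of *Cx3cr1* without a limit on low values (adjusted p = 0.0788) and at a pseudocount of 1 (-0.53, adjusted p = 0.0571). With quantile normalization, *P2ry12* (-1.20, adjusted p = 0.0852) and *Cx3cr1* (-0.31, adjusted p = 0.367) lost their calls in WT, while on TPM *Csf1r* was called as lower (-1.07, adjusted p = 0.00459). Genes of 3 to 4 kb, the length of *Cx3cr1* (3518 bases) and *Csf1r* (3505 bases), had a median log2 fold change of -0.59 in WT, while those of 2 to 3 kb, the length of *Tmem119* (2242 bases), had one of -0.14.

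In sh*Pax6* retinas no member was called after NMDA. *Tmem119* was listed at 3.48 and 3.3 FPKM after PBS against 4.56 and 3.74 FPKM after NMDA. *Cx3cr1* went from 3.01 and 4.52 to 4.5 and 6.82 FPKM, and *Csf1r* from 16.95 and 9.28 to 18.19 and 15.08 FPKM. *P2ry12* stood at 0.9 and 2.06 FPKM after PBS against 1.06 and 1.86 FPKM after NMDA, and *Gpr34* at 0.69 and 1.42 against 1.09 and 0.63 FPKM. Apart from *Tmem119*, whose NMDA libraries both lay above both PBS libraries, the libraries of these genes overlapped between the treatments. *Siglech* went the other way, from 1.85 and 1.02 FPKM after PBS to 0 and 0.38 FPKM after NMDA. The count of members called was 0 of 6 by limma, where 19.1% of all genes tested rose and 11% fell. *Siglech* alone had an unadjusted p below 0.05, but it was tested only through its sh*Pax6* PBS mean, which enters this comparison.

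The log2 fold changes in sh*Pax6* retinas were 0.28 for *Tmem119* (95% interval -0.45 to 1.00), 0.57 for *Cx3cr1* (-0.04 to 1.18), 0.40 for *Csf1r* (-0.18 to 0.98), 0.04 for *P2ry12* (-1.25 to 1.33), -0.23 for *Gpr34* (-1.62 to 1.15) and -2.75 for *Siglech* (-4.88 to -0.62, adjusted p = 0.0545). *Siglech* was called by limma at pseudocounts of 0.5 and 1 (adjusted p = 0.0333 and 0.0278), and its log2 fold change was -3.88 without sh*Pax6* NMDA replicate 2. It was tested only because its sh*Pax6* PBS mean of 1.44 FPKM passed the limit on low values. That group is the baseline of this comparison, so these calls support nothing here. Without sh*Pax6* PBS replicate 1, *Csf1r* had a log2 fold change of 0.83. *Sall1* was listed at 0.66 and 0.76 FPKM after PBS against 0.11 and 0.65 FPKM after NMDA, so 1 NMDA library lay close to the PBS libraries and the other far below them. Over all 7 members the median log2 fold change was 0.04, against 0 over the 27761 genes.

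The *Csf1r* gene value of sh*Pax6* PBS replicate 1 was made up differently from the others. Of its 16.95 FPKM, 7.54 were assigned to Csf1r-205, a transcript of 416 bases, and 1.41 to Csf1r-206, one of 465 bases, which the depth estimate puts at 48 and 11 fragments. Csf1r-205 was listed at 0 in both libraries of WT PBS and WT NMDA retinas, and at most at 1.49 FPKM in the remaining libraries. Csf1r-201, the transcript of 3870 bases, was listed in sh*Pax6* retinas at 8 and 9.23 FPKM after PBS against 16.96 and 14.88 FPKM after NMDA, without overlap. In WT it stood at 7.12 and 8.36 FPKM after PBS against 5.44 and 4.75 FPKM after NMDA, and in JNK3 KO at 7.68 and 7.51 against 4.19 and 3.59 FPKM. In a fit over 49940 transcripts, Csf1r-201 rose after NMDA in sh*Pax6* retinas (log2 fold change 0.88, adjusted p = 0.019 by limma). It fell in WT (-0.59, adjusted p = 0.029) and JNK3 KO retinas (-0.95, adjusted p = 0.0447). This fit held no correction for length, and genes of 3 to 4 kb had a median of -0.595 in WT, about that of Csf1r-201. Their median was 0.049 in sh*Pax6* and 0.047 in JNK3 KO retinas. In the same fit Tmem119-201, the only *Tmem119* transcript above 0, was called in WT (-1.44, adjusted p = 0.033) but not in JNK3 KO (-1.35, adjusted p = 0.26) nor between sh*Pax6* PBS and WT PBS retinas (1.42, adjusted p = 0.159), and its difference of response between WT and sh*Pax6* was not called (-1.71, adjusted p = 0.0793).

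*Cx3cr1* was divided between 2 transcripts of similar length, Cx3cr1-201 of 3753 and Cx3cr1-202 of 3156 bases. Cx3cr1-202 had 1.9 and 1.6 FPKM in WT PBS retinas but was listed at 0 in both WT NMDA libraries, whereas Cx3cr1-201 stood at 1.43 and 1.58 FPKM after PBS against 1.92 and 1.98 FPKM after NMDA. Elsewhere both were above 0 in every library, with Cx3cr1-201 taking between 27.4% and 76.1% of the gene value. *Tmem119* and *Sall1* each came from a single transcript in all 12 libraries. The values of *P2ry12* and *Siglech* were spread over 5 and 7 transcripts, none of them above 0 in more than 6 libraries.

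**Figure D2:**
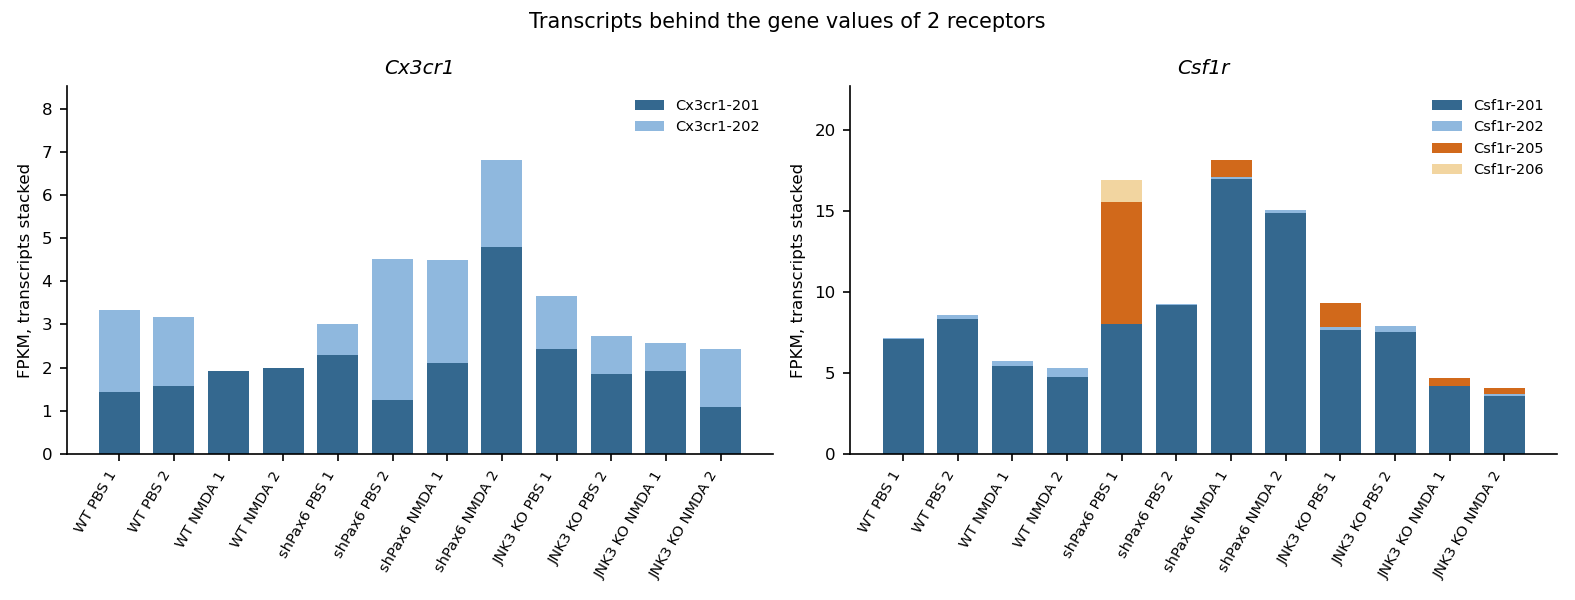
FPKM of the transcripts of *Cx3cr1* and *Csf1r*, stacked to the gene value, in each of the 12 libraries. Cx3cr1-202 is absent from both WT NMDA bars, and the *Csf1r* bar of sh*Pax6* PBS replicate 1 holds 7.54 FPKM of the short transcript Csf1r-205 above 8 FPKM of Csf1r-201.

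In JNK3 KO retinas, *Tmem119* and *Csf1r* were lower after NMDA. *Tmem119* was listed at 1.09 and 1.08 FPKM after PBS against 0.4 and 0.33 FPKM after NMDA, and *Csf1r* at 9.32 and 7.91 against 4.7 and 4.1 FPKM. Neither gene's libraries overlapped between the treatments. The log2 fold changes were -1.35 for *Tmem119* (standard error 0.32, adjusted p = 0.0291 by limma) and -0.95 for *Csf1r* (standard error 0.26, adjusted p = 0.0472). So 2 of the 6 members tested fell and 0 rose, where 6.1% of all genes tested fell and 4.33% rose. *Cx3cr1* was listed at 3.64 and 2.74 FPKM after PBS against 2.56 and 2.44 FPKM after NMDA (log2 fold change -0.33, 95% interval -0.94 to 0.28), *P2ry12* at 0.88 and 0.61 against 0.45 and 0.61 FPKM (-0.42, -1.71 to 0.87), and neither was called. *Siglech*, at 0.59 and 0.05 against 0.41 and 0.24 FPKM, and *Gpr34*, at 0.35 and 0.15 against 0.29 and 0.53 FPKM, overlapped between the treatments. *Sall1* was listed at 0.44 and 0.4 FPKM after PBS against 0.32 and 0.28 FPKM after NMDA. The median log2 fold change of all 7 members was -0.38, against 0 over the 27761 genes. Both calls were lost when any of the 4 libraries was left out, with log2 fold changes of -1.46 to -1.25 for *Tmem119* (adjusted p 0.0963 to 0.153) and -1.07 to -0.84 for *Csf1r* (adjusted p 0.126 to 0.257).

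Before NMDA, with PBS alone, sh*Pax6* retinas held more *Tmem119* than WT retinas, 3.48 and 3.3 against 1.07 and 1.35 FPKM. On the log2 scale the difference was 1.42 (standard error 0.32, adjusted p = 0.0167 by limma). *Gpr34* stood at 0.69 and 1.42 FPKM against 0.27 and 0.09 FPKM, and *Siglech* at 1.85 and 1.02 against 0.11 and 0.29 FPKM. For these 3 genes and for *Sall1*, at 0.66 and 0.76 against 0.32 and 0.29 FPKM, both sh*Pax6* libraries lay above both WT libraries. Only *Tmem119* was called, 1 of 6 members tested as higher and 0 as lower, where 5.36% of all genes tested were higher and 11.2% lower. The log2 fold changes of *Gpr34* (2.05, 95% interval 0.66 to 3.43, adjusted p = 0.0513) and *Siglech* (2.37, 95% interval 0.24 to 4.50, adjusted p = 0.128) were not called, and both genes were tested only because their sh*Pax6* means passed the limit of 1 FPKM. *Csf1r*, at 16.95 and 9.28 against 7.17 and 8.6 FPKM, had a log2 fold change of 0.67 (adjusted p = 0.114), which was 0.13 when the transcripts under 1 kb were left out of the sum. *Cx3cr1*, at 3.01 and 4.52 against 3.33 and 3.19 FPKM, and *P2ry12*, at 0.9 and 2.06 against 1.15 and 0.58 FPKM, overlapped between the groups.

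The *Tmem119* call in sh*Pax6* PBS retinas was lost without WT PBS replicate 1 (log2 fold change 1.27, adjusted p = 0.103), without WT PBS replicate 2 (1.58, adjusted p = 0.0565) and without sh*Pax6* PBS replicate 1 (1.38, adjusted p = 0.0637). Without sh*Pax6* PBS replicate 2, *Csf1r* was called as well (1.10, adjusted p = 0.00971), a fit that rests on the library with the short *Csf1r* transcripts. In the same PBS libraries, the Müller glia genes *Rlbp1*, *Glul* and *Aqp4* summed to 522.77 and 507.17 FPKM in sh*Pax6* against 286.46 and 288.52 FPKM in WT retinas. *Apoe*, which both Müller glia and disease-associated microglia express, was at 979.88 and 916.06 against 219.48 and 226.46 FPKM, and retinal ganglion cell genes such as *Rbpms* summed to 95.16 and 96.81 against 328.44 and 342.94 FPKM. The part of these shifts in the *Tmem119* difference was not tested.

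Between JNK3 KO and WT retinas given PBS, no member was called by limma. Of the 6 tested, 0 had an unadjusted p below 0.05, and 1.1% of all genes tested were higher and 0.407% lower in JNK3 KO. *Tmem119* was at 1.09 and 1.08 FPKM in JNK3 KO against 1.07 and 1.35 FPKM in WT, a log2 fold change of -0.14 (95% interval -0.86 to 0.59). *Csf1r* differed by 0.13 (-0.45 to 0.71), *Cx3cr1* by -0.04 (-0.65 to 0.57), *P2ry12* by -0.14 (-1.44 to 1.15), *Gpr34* by 0.34 (-1.04 to 1.72) and *Siglech* by 0.17 (-1.96 to 2.30). For *P2ry12*, *Gpr34* and *Siglech* these intervals hold log2 differences of 1 in either direction.

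The response to NMDA itself was compared between kinds of retina as the difference of their log2 fold changes, and both comparisons share the WT libraries. *Tmem119* responded differently in WT than in sh*Pax6* retinas, its log2 fold changes of -1.44 and 0.28 differing by -1.71 (standard error 0.45, adjusted p = 0.012 by limma). *Cx3cr1* did as well, with -0.71 and 0.57 (difference -1.29, standard error 0.38, adjusted p = 0.02). *Siglech* was called in the opposite sense, with 1.07 and -2.75 (difference 3.83, standard error 1.33, adjusted p = 0.039), but it was tested only because its sh*Pax6* PBS mean of 1.44 FPKM passed the limit on low values, and that group enters this difference, so the call supports nothing here. Thus 2 of 6 members tested had a lower and 1 a higher response in WT, where 31.4% of all genes tested had a lower and 18.3% a higher one, so the members' share called was about that of all genes. The differences of *P2ry12* (-1.89, 95% interval -3.72 to -0.07, adjusted p = 0.0797) and *Csf1r* (-0.90, 95% interval -1.71 to -0.08, adjusted p = 0.0666) were not called, and that of *Gpr34* was 0.43 (95% interval -1.52 to 2.39). Between WT and JNK3 KO retinas no member's response was called different (0 of 6 by limma and 0 at an unadjusted p below 0.05), where 27.9% of all genes tested had a lower and 23.5% a higher response in WT. The difference was -0.08 for *Tmem119* (95% interval -1.11 to 0.95) and 0.45 for *Csf1r* (95% interval -0.36 to 1.27).

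The difference of *Tmem119* between WT and sh*Pax6* held without each library in turn (-2.06 to -1.37) and lost its call on quantile-normalized values (-1.05, adjusted p = 0.123). That of *Cx3cr1* lost its call without WT PBS replicate 1 or 2, WT NMDA replicate 1, sh*Pax6* PBS replicate 1 or sh*Pax6* NMDA replicate 2 (-1.32 to -0.99, adjusted p 0.0511 to 0.0626), and was -0.59 (adjusted p = 0.258) with the length trend removed. The call of *Siglech* was lost without any of the 8 libraries but sh*Pax6* NMDA replicate 2 (adjusted p 0.0533 to 0.116). For Csf1r-201 alone, the difference between WT and sh*Pax6* was -1.47 (standard error 0.24, adjusted p = 0.00375 by limma). That transcript fit held no correction for length, and genes of 3 to 4 kb had a median difference of -0.639.

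**Figure D3:**
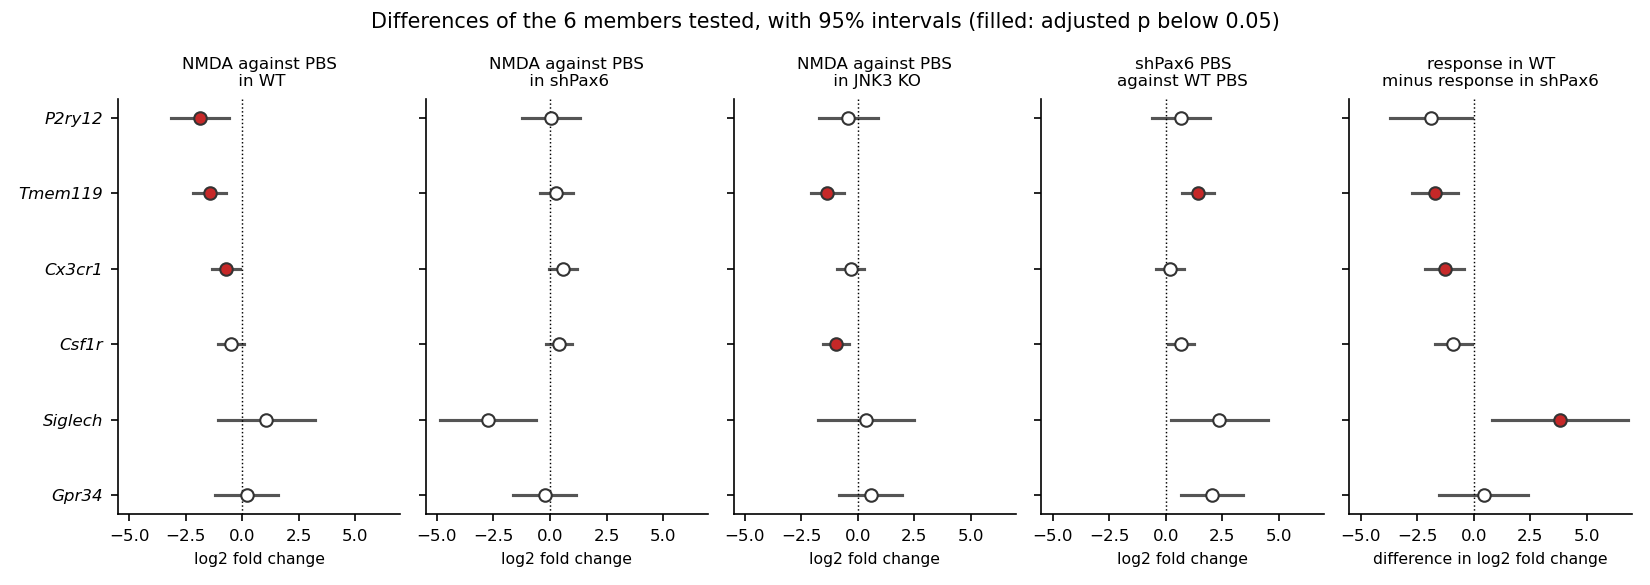
Log2 fold changes of the 6 members tested in 4 comparisons and, at the right, the difference between the WT and sh*Pax6* responses, with 95% intervals from limma as lines and filled points at an adjusted p below 0.05. *Tmem119* lies below 0 after NMDA in WT (-1.44) and JNK3 KO (-1.35), near 0 in sh*Pax6* (0.28) and above 0 in sh*Pax6* PBS against WT PBS (1.42).

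Many genes that microglia share with other macrophages rose after NMDA in WT and sh*Pax6* retinas. Among 28 such genes, of which 27 were tested, 13 rose and 5 fell after NMDA in WT, 21 rose and 1 fell in sh*Pax6*, and 3 rose and 6 fell in JNK3 KO retinas. Their median log2 fold changes were 0.72, 1.49 and -0.30, against -0.09, 0.10 and -0.01 over all genes tested. Of all genes tested, 26% rose and 33.8% fell in WT, 19.1% and 11% in sh*Pax6*, and 4.33% and 6.1% in JNK3 KO retinas. With the length trend removed, 9 rose and 3 fell in WT, with a median of 0.20. In that fit 3920 of 16452 genes rose and 3638 fell in WT, with a median of 0.008. *Trem2*, a lipid-sensing receptor of phagocytic microglia, went from 1.32 and 1.16 to 5.25 and 8.44 FPKM in WT (log2 fold change 2.34, adjusted p = 2.97e-05 by limma) and from 5.55 and 5.26 to 16.44 and 22.27 FPKM in sh*Pax6* retinas (1.81, adjusted p = 0.000591). The lysosomal gene *Cd68* went from 7.25 and 8.17 to 33.6 and 35.35 FPKM in WT and from 4.44 and 5.99 to 68.86 and 73.2 FPKM in sh*Pax6* retinas, and was called in both. *Aif1*, which encodes the marker IBA1, rose in WT (1.80, adjusted p = 0.00274) and sh*Pax6* (2.41, adjusted p = 0.00149) but was listed at 4.45 and 4.94 against 2.55 and 3.48 FPKM in JNK3 KO retinas. *Tyrobp*, the adaptor of TREM2, rose in WT (1.75) and sh*Pax6* (2.26) and fell in JNK3 KO retinas (-1.15), all called. *Itgam*, which encodes CD11b, fell in WT (-1.22) and JNK3 KO (-1.44) and rose in sh*Pax6* retinas (1.33), all called, but its fall in WT was not called with the length trend removed (-0.25, adjusted p = 0.285).

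Of 16 genes of disease-associated microglia, a state described in neurodegeneration, 7 rose and 2 fell after NMDA in WT (median log2 fold change 0.28). In sh*Pax6* retinas 12 rose and 0 fell (1.38), and in JNK3 KO retinas 6 rose and 1 fell (0.17). Over all genes tested, 26% rose and 33.8% fell in WT, 19.1% and 11% in sh*Pax6*, and 4.33% and 6.1% in JNK3 KO retinas. After removal of the length trend, 8 of the 16 rose and 3 fell in WT, with a median of 0.75. Over all 16452 genes of that fit, 3920 rose and 3638 fell in WT, with a median of 0.008. *Lgals3*, which encodes galectin-3, went from 11.05 and 13.75 to 124.31 and 130.3 FPKM in WT and from 6.12 and 5.67 to 159.71 and 185.12 FPKM in sh*Pax6* retinas. *Cd63* and *Cst7* were the other members of that list with the largest called changes in WT, at log2 fold changes of 2.24 and 2.41. Several genes of the list, *Apoe* and the cathepsins among them, are also expressed by other retinal cells, and *Apoe* stands in the Müller glia list used here as well.

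Genes of blood-derived cells were present in these libraries too. Of 16 monocyte and monocyte-derived macrophage genes, 7 rose and 3 fell after NMDA in WT (median log2 fold change 0.37). In sh*Pax6* retinas 14 rose and 0 fell (2.15), and in JNK3 KO retinas 1 rose and 5 fell (-0.49). Over all genes tested, 26% rose and 33.8% fell in WT, 19.1% and 11% in sh*Pax6*, and 4.33% and 6.1% in JNK3 KO retinas. After removal of the length trend, 5 of the 16 rose and 3 fell in WT, with a median of 0.08. Among all 16452 genes so corrected, 3920 rose and 3638 fell in WT, with a median of 0.008. *Ccr2*, the chemokine receptor of classical monocytes, was at 4.61 and 4.74 FPKM after PBS against 2.77 and 2.84 FPKM after NMDA in WT, at 1.46 and 0.95 against 4.03 and 4.58 FPKM in sh*Pax6*, and at 6.35 and 6.16 against 2.23 and 2.14 FPKM in JNK3 KO retinas, and its fall in WT was not called with the length trend removed (-0.09). *Ly6c2* was at 7.71 and 8.01 against 5.94 and 4.13 FPKM in WT and rose from 8.04 and 5.6 to 16.73 and 14.12 FPKM in sh*Pax6* and from 1.9 and 2.33 to 4.03 and 4.16 FPKM in JNK3 KO retinas (log2 fold change 0.93, adjusted p = 0.0335 by limma). Largest of the called monocyte changes in WT were those of *Cd14* (3.16), *Ms4a7* (2.67) and *S100a4* (1.26). *Mrc1*, a defining gene of border macrophages, was at 0.02 to 0.12 FPKM in the PBS libraries and WT NMDA libraries and at 1.7 and 2.47 FPKM in sh*Pax6* NMDA. Of 6 border macrophage genes tested, 2 rose (*Pf4*, *Stab1*) and 1 fell (*Lyve1*) in WT, 5 rose in sh*Pax6* and 0 were called in JNK3 KO retinas, with medians of 0.34, 3.77 and -0.16. *Mrc1* and *Folr2* were tested only because their sh*Pax6* NMDA means passed the limit of 1 FPKM. That group enters the sh*Pax6* comparison, so the rises of *Mrc1* and *Folr2* there support nothing. The count of 5 and the median of 3.77 include both genes. With the length trend removed, the rises of *Pf4* (2.23, adjusted p = 0.0599), *S100a4* (0.21, adjusted p = 0.192), *Cst7* (1.44, adjusted p = 0.0731) and *Aif1* (0.67, adjusted p = 0.187) in WT were not called.

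Neutrophil genes summed to 229.36 and 252.24 FPKM after PBS against 1976.24 and 2016.33 FPKM after NMDA in WT libraries. In sh*Pax6* libraries the sums were 8.35 and 12.43 against 70.53 and 80.98 FPKM, and in JNK3 KO libraries 171.05 and 184.11 against 17.45 and 18.11 FPKM. *Ly6g*, *Ngp*, *Elane* and *Mpo* were listed at 0 in the sh*Pax6* PBS and JNK3 KO NMDA libraries. Of 9 tested, 5 rose and 0 fell after NMDA in WT and likewise in sh*Pax6*, and 0 rose and 5 fell in JNK3 KO retinas. The median was 2.77 in WT and 1.77 in sh*Pax6*. Over all genes tested, 26% rose and 33.8% fell in WT, 19.1% and 11% in sh*Pax6*, and 4.33% and 6.1% in JNK3 KO retinas. After removal of the length trend, 6 of the 9 rose and 0 fell in WT, with a median of 1.74. So corrected, 3920 of all 16452 genes rose and 3638 fell in WT, with a median of 0.008. The largest called changes in WT were those of *Retnlg* (5.58), *Ngp* (4.53) and *S100a9* (3.55), and *Ngp* was listed at 0 in every sh*Pax6* and JNK3 KO library. *Ngp*, *Ly6g* and *Ltf* were tested only because their WT NMDA means passed the limit of 1 FPKM. That group enters the WT comparison, so the values of *Ngp*, *Ly6g* and *Ltf* support nothing there. The WT count and median of the neutrophil list include them. With PBS alone, 0 of 9 neutrophil and 2 of 16 monocyte genes were higher and 6 and 10 were lower in sh*Pax6* than in WT retinas. In that comparison 5.36% of all genes tested were higher and 11.2% lower. Several of the 7 members, *Csf1r* and *Cx3cr1* among them, are also expressed by monocytes, and *Siglech* by plasmacytoid dendritic cells, and the part of infiltrating cells in the members' values was not tested.

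**Figure D4:**
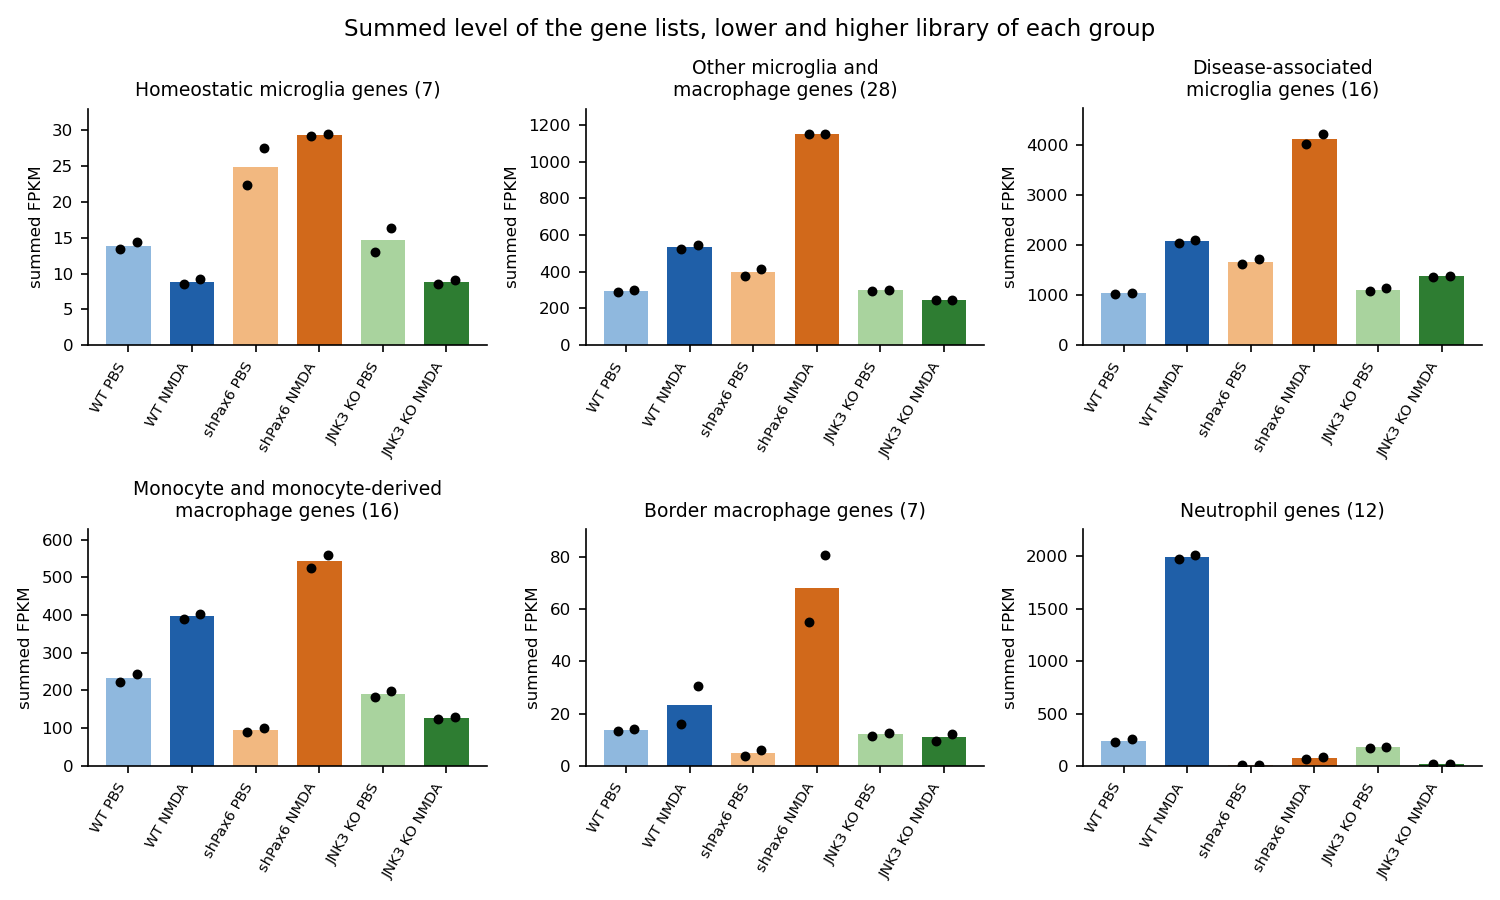
Summed FPKM of 6 gene lists in each group of retinas, with bars for the mean and points for the lower and higher of the 2 libraries. The homeostatic list stands at 13.42 and 14.39 FPKM in WT PBS against 8.48 and 9.28 FPKM in WT NMDA. The list of shared genes goes from 289.92 and 302.61 to 522.26 and 542.91 FPKM, and both lists are highest in sh*Pax6* NMDA libraries. Most of the homeostatic sum in WT is *Csf1r* and *Cx3cr1*, whose log2 fold changes in WT were 0.12 and -0.09 with the length trend removed.

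Among genes of the ligands and of TGF-beta signalling, *Cx3cl1* fell and *Csf1* and *Tgfb1* rose after NMDA in WT. Of 19 genes for ligands, their processing and TGF-beta signalling, 4 rose and 10 fell after NMDA in WT, 5 rose and 3 fell in sh*Pax6*, and 2 rose and 3 fell in JNK3 KO retinas. The median log2 fold change of the list was -0.81 in WT, 0.21 in sh*Pax6* and -0.07 in JNK3 KO, against -0.09, 0.10 and -0.01 over all genes tested. Of all genes tested, 26% rose and 33.8% fell in WT, 19.1% and 11% in sh*Pax6*, and 4.33% and 6.1% in JNK3 KO retinas. With each library's length trend removed, 5 of the 19 rose and 6 fell in WT, with a median of -0.15. All genes of that fit numbered 16452, of which 3920 rose and 3638 fell in WT, with a median of 0.008. *Cx3cl1*, the neuronal ligand of CX3CR1, went from 36.19 and 36.53 to 18.74 and 19.22 FPKM in WT, from 18.89 and 23.91 to 7.07 and 9.36 FPKM in sh*Pax6* and from 33.28 and 34.16 to 22.2 and 19.24 FPKM in JNK3 KO retinas. It fell in all 3 kinds of retina (log2 fold changes -0.93, -1.37 and -0.70, adjusted p = 0.000502, 0.000179 and 0.0192 by limma). *Csf1*, a ligand of CSF1R, rose in WT from 6.09 and 5.34 to 11.82 and 9.9 FPKM and in sh*Pax6* from 2.74 and 2.51 to 8.2 and 8.25 FPKM, and was at 7.02 and 8.28 against 6.61 and 6.98 FPKM in JNK3 KO retinas. *Il34*, the second ligand of CSF1R, was listed at 10.4 and 7.4 FPKM in WT PBS and between 2.1 and 4.49 FPKM in the 4 sh*Pax6* libraries, and was called in none of the 7 comparisons, though it was called as lower in WT with the length trend removed (-1.24, adjusted p = 0.0284). *Tgfb1* rose in WT (1.45, adjusted p = 0.00222) and sh*Pax6* (2.47, adjusted p = 0.000319). *Tgfbr1*, a receptor of TGF-beta, *Smad4*, the common mediator of its signal, and *Adam10*, a protease that sheds CX3CL1, had the largest called changes of the list in WT (-1.90, -1.55 and -1.77), and none of the 3 was called in sh*Pax6* retinas, with called differences of -2.11, -1.79 and -1.80 between the responses. With the length trend removed, the 3 were still called, at -0.78, -1.17 and -0.91 in WT and at -1.03, -1.31 and -0.92 for the differences. All are values of whole retina, so the cells that carry these changes, and TGF-beta signalling in microglia, were not measured.

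**Figure D5:**
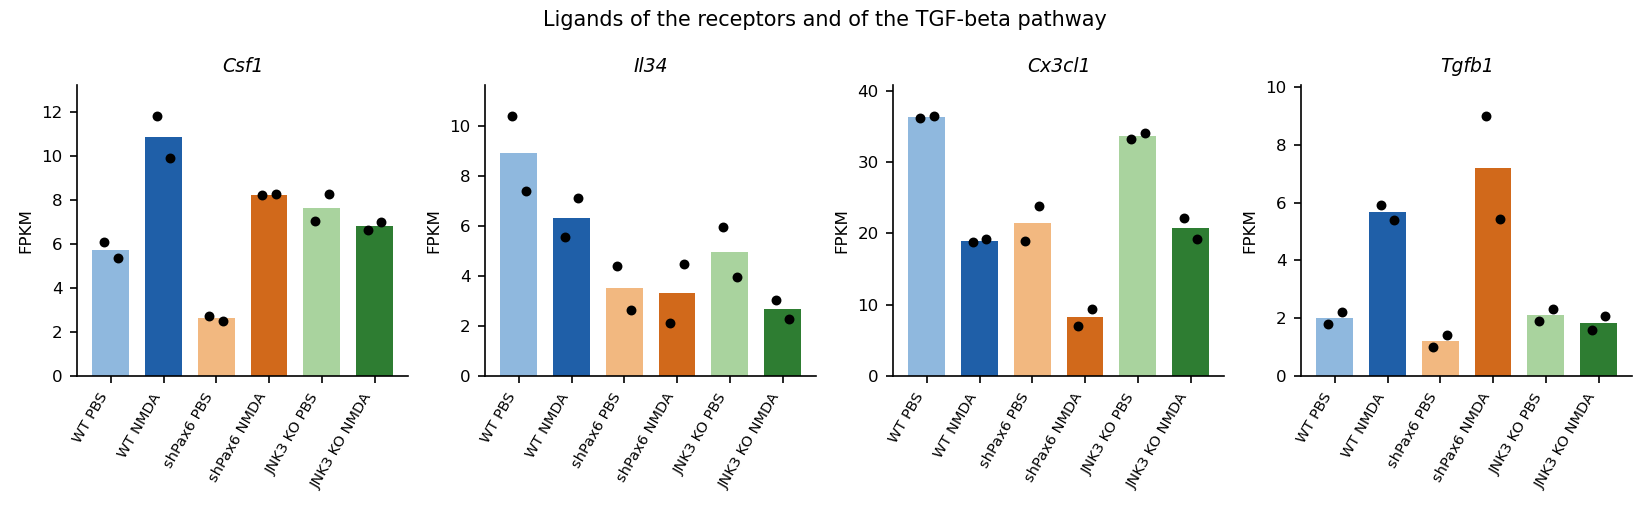
FPKM of 4 ligand genes in the 6 groups, with bars for the mean of 2 libraries and points for the libraries. *Cx3cl1* is lower with NMDA than with PBS in each kind of retina, and *Csf1* and *Tgfb1* are higher with NMDA in WT and sh*Pax6* but not in JNK3 KO retinas.

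Across the 12 libraries, *Tmem119* varied most like *Csf1r* among the members (Pearson's r 0.943 on log2 values) and *P2ry12* most like *Cx3cr1* (0.882). The r of *Siglech* with the other members tested lay between -0.087 and 0.193. Outside the members, the tested genes most like the mean z-score of the 6 members were *Egflam* (0.965), *Pde8b* (0.959), *Nr2e3* (0.943), *Cdcp3* (0.942), *5330413P13Rik* and *Insm1* (both 0.938), *Klhl18* (0.935), *Sirpa* (0.929), *Doc2b* (0.926) and *Cdhr1* (0.925), of which *Nr2e3* and *Cdhr1* are known as photoreceptor genes. For single members, the closest were *Sparc* (0.973) and *Ube2l6* (0.970) for *Tmem119*, *Clu* and *Sparc* (both 0.948) for *Csf1r*, *Cntf* and *Gbp4* (both 0.925) for *Cx3cr1*, *Col9a2* (0.959) and *Kank1* (0.937) for *P2ry12*, *Dyrk1b* (0.908) and *Gt(ROSA)26Sor* (0.905) for *Gpr34*, and *Zdhhc6* (0.875) and *Taf7* (0.859) for *Siglech*. The points share 6 groups and, within WT NMDA, the trend with transcript length, so these coefficients are descriptions over 12 libraries.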

How the data were processed

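RNA of 12 mouse retina libraries had been sequenced on an Illumina instrument. The authors aligned reads to GRCm38.p6 with STAR 2.7.1a, quantified them with RSEM 1.3.3 and deposited tables of FPKM for genes and for transcripts. The submitters' notes also name edgeR 3.36.0 and R 4.1.0, but FPKM are not counts, so no count test was run. Differences were tested with limma 3.58.1 in R 4.3.3 on log2(FPKM + 0.1), with an intensity trend and all 6 groups in 1 fit, for genes with a group mean above 1 FPKM, which understates changes of low genes. Groups came from the labels. Depth was estimated from steps between low values and covers counting error only. Transcript lengths were matched to GENCODE M21 for 55227 of 55487 genes. Beside the members, the text names the 3 genes of each list with the largest called change in WT, and defining genes, of which 1 is not reported here. Members and lists were chosen with earlier results of these data known. The fit was tested on simulated data. Alternatives in scaling, pseudocount, filter, spread, length and libraries were tried. The fit to transcripts of 1 kb or longer and the length correction of the other lists were chosen after seeing the data.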

Additional observations from a re-analysis of the deposited data

Results flagged for a closer look

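The response to NMDA was called different between WT and sh*Pax6* retinas, by an interaction test in limma, for 3 of the 6 members tested, where 49.7% of all genes tested were called in this comparison. The members' share is thus that of all genes. The difference, WT minus sh*Pax6*, was -1.71 on the log2 scale for *Tmem119* (adjusted p = 0.012), -1.29 for *Cx3cr1* (adjusted p = 0.02) and 3.83 for *Siglech* (adjusted p = 0.039). *Siglech* was tested only because its sh*Pax6* PBS libraries, at 1.85 and 1.02 FPKM, passed the limit on low values, and these libraries enter the difference. The sh*Pax6* NMDA libraries, at 0 and 0.38 FPKM, overlapped with the WT libraries, at 0.11 to 0.69 FPKM, and each library's value rested on 46 fragments or fewer by the depth estimate.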

How the results depend on the processing

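Depth limits *P2ry12*, *Siglech*, *Sall1* and *Gpr34* most, and with 2 libraries a group most calls of the members rest on single libraries. Counts of members called are given first, with the main count of each comparison before it. After NMDA in WT the 3 calls became 1 at a pseudocount of 1 and 1 with quantile normalization. They became 2 without a filter on low values, with the spread of the compared groups alone, with length correction and with the unadjusted p and fold, and 4 on TPM. With transcripts of 1 kb or longer they were 3, with *Csf1r* called and *P2ry12* not. In sh*Pax6* the 0 calls became 1 at pseudocounts of 1 and 0.5, with 75th-percentile scaling, quantile normalization, length correction, transcripts of 1 kb or longer, and an unadjusted p with a log2 fold change above 1. In JNK3 KO the 2 calls became 0 at a pseudocount of 1 and without a filter on low values, and 1 with the spread of the compared groups alone, without the intensity trend and with the unadjusted p and fold. Between sh*Pax6* PBS and WT PBS the 1 call became 0 with the spread of the compared groups alone, 2 at a pseudocount of 1, with 75th-percentile scaling, without the intensity trend, with length correction and with transcripts of 1 kb or longer, and 3 with quantile normalization and with the unadjusted p and fold. For the response of WT against sh*Pax6* the 3 calls became 1 with quantile normalization and 1 with length correction, and for that of WT against JNK3 KO the 0 calls became 1 with length correction. Leaving out 1 library at a time gave 1 to 2 calls in WT, 0 to 1 in sh*Pax6*, 0 in JNK3 KO, 0 to 2 between sh*Pax6* PBS and WT PBS, 0 between JNK3 KO PBS and WT PBS, 1 to 3 for WT against sh*Pax6* responses and 0 for WT against JNK3 KO responses. The cause of these shifts was not tested, other than that fewer libraries entered.

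Signs turned only where the log2 fold change was not called in the main fit. After NMDA in WT, *Gpr34* was -0.17 on TPM, *Csf1r* 0.12 with length correction and *Siglech* -0.066 with transcripts of 1 kb or longer. In sh*Pax6*, *P2ry12* was -0.008 on TPM, -0.075 with 75th-percentile scaling, -0.25 with quantile normalization and -0.14 with length correction. Between JNK3 KO PBS and WT PBS, *Cx3cr1* was 0.03 with quantile normalization and 0.026 with length correction and *P2ry12* 0.43 with transcripts of 1 kb or longer. For WT against JNK3 KO responses, *Csf1r* was -0.13 on TPM, *Tmem119* 0.45 and *Gpr34* 0.066 with quantile normalization, *Cx3cr1* 0.28 with length correction and *Siglech* -0.32 with transcripts of 1 kb or longer. Leaving out 1 library at a time spanned 0 for *Gpr34* in WT (-0.28 to 0.68); for *P2ry12* (-0.52 to 0.59), *Csf1r* (-0.033 to 0.83) and *Gpr34* (-0.71 to 0.24) in sh*Pax6*, *Siglech* in JNK3 KO (-0.73 to 1.47) and *Cx3cr1* between sh*Pax6* PBS and WT PBS (-0.11 to 0.46). Between JNK3 KO PBS and WT PBS it did so for *P2ry12* (-0.58 to 0.29), *Cx3cr1* (-0.24 to 0.15), *Csf1r* (-0.002 to 0.26), *Tmem119* (-0.29 to 0.018), *Siglech* (-0.93 to 1.27) and *Gpr34* (-0.14 to 0.82). Among responses it did so for *Gpr34* in WT against sh*Pax6* (-0.047 to 0.92), and for *Tmem119* (-0.42 to 0.26), *Siglech* (-0.40 to 1.80) and *Gpr34* (-0.84 to 0.12) in WT against JNK3 KO.

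Over all genes, the unadjusted p and fold moved the calls from 9855 to 5963 in WT, from 4967 to 2658 in sh*Pax6*, from 1718 to 770 in JNK3 KO and from 2724 to 1118 between sh*Pax6* PBS and WT PBS. The spread of the compared groups alone gave 976 in sh*Pax6* and 887 between sh*Pax6* PBS and WT PBS. Between JNK3 KO PBS and WT PBS, 249 calls became 152 without a filter, 166 on TPM, 134 with quantile normalization, 12 with the groups' own spread, 35 without the intensity trend and 100 with length correction, and length correction gave 5619 in place of 8472 for WT against JNK3 KO responses. TPM moved the median over all genes in WT from -0.09 to -0.66 and the share of higher among called genes from 43.5% to 21.4%. That share went from 63.4% to 48.6%, 44% and 47.5% in sh*Pax6* with 75th-percentile scaling, quantile normalization and length correction, and from 32.4% to 42.5% and 46.6% between sh*Pax6* PBS and WT PBS with the last 2 of these. It went from 36.8% to 16.3% on TPM and 53.5% with length correction for WT against sh*Pax6* responses, and from 45.7% to 23.2% on TPM for WT against JNK3 KO.

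Same-numbered libraries did not deviate together, with correlations of -0.097 to 0.086 over 15 pairs of groups, so the numbers do not pair them. With a replicate block, 2 members were called in WT, where *Cx3cr1* was lost (adjusted p = 0.0555), and 2 for WT against sh*Pax6* responses, where *Siglech* was lost (adjusted p = 0.0526). Calls over all genes between JNK3 KO PBS and WT PBS went from 249 to 153 under the block.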

Other observations

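The following genes of the shared list were chosen after their values were seen and are given as values with no test. Over the 27 genes of that list tested by limma, 8 were higher, 8 lower and 11 not called in sh*Pax6* PBS against WT PBS retinas. The list's median log2 fold change was -0.06, the same as over all genes tested, of which 5.36% were higher and 11.2% lower. In PBS retinas, the complement genes *C1qa*, *C1qb* and *C1qc* were higher in sh*Pax6* than in WT libraries, at 57.06 and 50.78 against 11.51 and 12.47 FPKM for *C1qa*. *Fcrls*, a scavenger receptor-like gene that microglia express strongly, stood at 4.04 and 3.38 against 0.32 and 0.61 FPKM. With NMDA, *C1qa* stood at 171.62 and 164.59 FPKM and *Fcrls* at 8.29 and 7.66 FPKM in sh*Pax6* retinas.

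Other myeloid genes went the other way in the same PBS libraries. *Spi1*, which encodes the myeloid transcription factor PU.1, was at 1.62 and 1.67 FPKM in sh*Pax6* PBS against 7.09 and 9.56 FPKM in WT PBS, and *Ptprc*, which encodes the leukocyte antigen CD45, at 0.91 and 1.36 against 3.82 and 2.95 FPKM. In sh*Pax6* NMDA libraries *Spi1* stood at 11.49 and 11.83 FPKM and *Ptprc* at 4.94 and 5.28 FPKM.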
